A study of Mus musculus with 6 samples.

Results

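The genes of the mouse major histocompatibility complex (MHC), called H2 in this species, and the genes that prepare antigens for its products were measured in bulk RNA sequencing of 6 livers. They were chosen by name: every gene whose symbol starts with H2- except H2-Ke6, which gave 44 genes, and 13 others (B2m, Tap1, Tap2, Tapbp, Tapbpl, Erap1, Psmb8, Psmb9, Psmb10, Cd74, Ciita, Nlrc5 and Cd1d1). These 57 were among 55536 genes in the deposited table, and 49 of them lie on chromosome 17. The livers came from male C57BL/6 mice, 3 wild type (Sirt5+/+) and 3 lacking the sirtuin deacylase gene Sirt5 (Sirt5-/-). All 6 carried the same tumour model: at 4 weeks of age a PB[CMV-myc-YAP5SA]DS plasmid (50 µg), which encodes an active form of the growth regulator YAP under the CMV promoter, was given by hydrodynamic injection with 10 µg of the Act-PBase transposase plasmid, and liver was taken 20 days later. Livers with the RFP control plasmid, or without injection, were not analysed here, so each value describes a YAP5SA liver. The labels number the livers 1 to 3 in each genotype and do not state that each is a separate animal; p-values then measure the spread between these samples, which may be technical.

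MHC class I molecules stand on nearly all nucleated cells. Each is a heavy chain paired with the light chain beta-2-microglobulin, and it holds peptides that the proteasome cut in the cytosol, that the TAP transporter carried into the endoplasmic reticulum and that tapasin helped to load. MHC class II molecules are pairs of alpha and beta chains, held mainly by dendritic cells, B cells and macrophages, and filled in endosomes, where the invariant chain (Cd74) is removed and H2-DM exchanges its last fragment for a peptide. The transactivator Ciita switches on class II genes, and its relative Nlrc5 acts on class I genes. In the liver, hepatocytes carry little class II, while Kupffer cells, dendritic cells and infiltrating leukocytes carry it.

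The 6 libraries held 19307808 to 24330797 counts, so 3 counts were worth 0.0827 to 0.393 CPM (counts scaled to a common library size) after scaling. All CPM values below are scaled with edgeR's TMM factors, which ranged from 0.396 in Sirt5+/+ replicate 3 to 1.68 in Sirt5-/- replicate 3. A low factor raises the CPM of a library above its share of counts. Sirt5 itself was at 16.7, 15.7 and 12.6 CPM in Sirt5+/+ replicates 1 to 3 and at 0.817, 1.24 and 0.497 CPM in Sirt5-/- replicates 1 to 3. Mitochondrial transcripts took 46.4% of counts in Sirt5+/+ replicate 3 and 40.8% in Sirt5-/- replicate 1, against 6.58% to 21.5% in the other libraries. The tissue label fitted the markers, since the sum of 10 hepatocyte genes was 82410 to 108589 CPM in the Sirt5+/+ livers, but it was 18219 to 36468 CPM in the Sirt5-/- livers, and 8 of the 10 fell (3 with library totals, and 4 without Sirt5-/- replicate 2 or without replicate 3). Among all 14799 genes tested, 17.4% were higher and 17.1% lower in Sirt5-/- (2575 and 2525 genes, adjusted p under 0.05). With library totals as the scale instead, 2438 were higher and 325 lower, and the all-gene median (log2) moved from -0.08 to 0.60.

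Of the 57 genes, 39 had enough counts to be tested, and 17 of these rose and 2 fell in the Sirt5-/- livers. The background shares of 17.4% and 17.1% apply to these counts. Of the increases, 10 lay on the class II side: 8 of 9 tested class II chains, Cd74 and Ciita. On the class I side 5 of 17 tested heavy chains rose and 1 fell, and none of the 6 light chain and loading genes passed the test. The 2 immunoproteasome subunits Psmb8 and Psmb9 rose, and the lipid-presenting gene Cd1d1 fell. The median log2 fold change was 2.61 over the tested class II chains (range 1.89 to 3.29) and 0.16 over the tested class I heavy chains (-3.42 to 3.91), against -0.08 over all genes. Without the 2 libraries rich in mitochondrial reads, an alternative chosen after the data were seen, 21 of 40 tested members were higher and 5 lower, and the medians were 3.23 and 0.56. The background was larger there too: of 15527 genes 3904 (25.1%) were higher and 3535 lower.

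**Figure D1:**
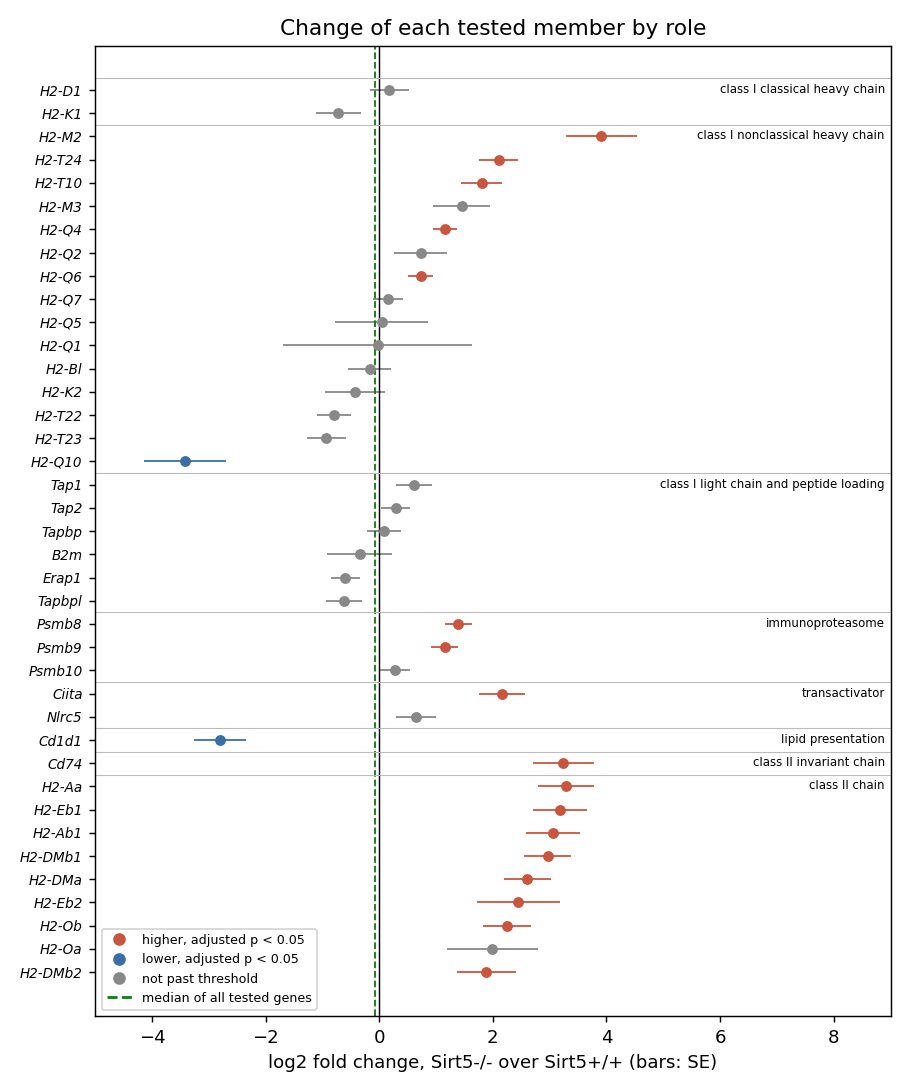
Log2 fold change of each of the 39 tested genes (x axis, Sirt5-/- over Sirt5+/+, 3 livers each, edgeR), grouped by role, with bars of 1 SE and colours for genes past an adjusted p of 0.05. Class II chains sit between 1.89 and 3.29, whereas class I heavy chains spread from -3.42 to 3.91 around a median of 0.16, and the dashed line is the median of all genes at -0.08.

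The main class II alpha and beta chains rose together in all Sirt5-/- livers. H2-Aa, the alpha chain of the I-A molecule (chr17:34282744-34287823, minus strand, GRCm38), was at 211, 159 and 320.2 CPM in Sirt5+/+ replicates 1 to 3 and at 1430.0, 2344 and 2989.9 CPM in Sirt5-/- replicates 1 to 3. Its beta chain partner H2-Ab1 (chr17:34257689-34269419, plus strand) was at 233, 157 and 218 CPM against 920.1, 1797 and 2377 CPM. H2-Eb1, the beta chain of the I-E molecule (chr17:34305867-34316674, plus strand), was at 222, 152 and 239 CPM against 1046, 1982 and 2512 CPM. For all 3 genes every Sirt5-/- liver lay above every Sirt5+/+ liver, and Sirt5-/- replicate 1 was the lowest and replicate 3 the highest of its genotype. The log2 fold changes were 3.29 ± 0.49 for H2-Aa (SE; 9.80-fold, adjusted p = 0.00263, edgeR), 3.07 ± 0.48 for H2-Ab1 (8.38-fold, adjusted p = 0.00293) and 3.18 ± 0.48 for H2-Eb1 (9.04-fold, adjusted p = 0.00263).

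Cd74, the invariant chain that escorts class II to the endosome (chr18:60803848-60812652), followed the same order. Its level was 644, 447 and 700.0 CPM in Sirt5+/+ and 3388, 5786 and 7721 CPM in Sirt5-/- (597 ± 133 against 5631 ± 2171, SD, n = 3). The genotypes did not overlap, and the log2 fold change was 3.24 ± 0.54 (9.43-fold, adjusted p = 0.00353, edgeR). Per library, Cd74 stood at 5.67, 9.69 and 12.9 times the Sirt5+/+ mean in Sirt5-/- replicates 1 to 3, and H2-Ab1 at 4.54, 8.86 and 11.7 times. Measured within a library, Cd74 moved closely with H2-Ab1: the log2 ratio of their counts was 1.55 ± 0.11 in Sirt5+/+ and 1.76 ± 0.11 in Sirt5-/- (SD, n = 3). H2-Eb1 over H2-Ab1 was 0.00 ± 0.11 and 0.14 ± 0.05 on the same scale.

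**Figure D2:**
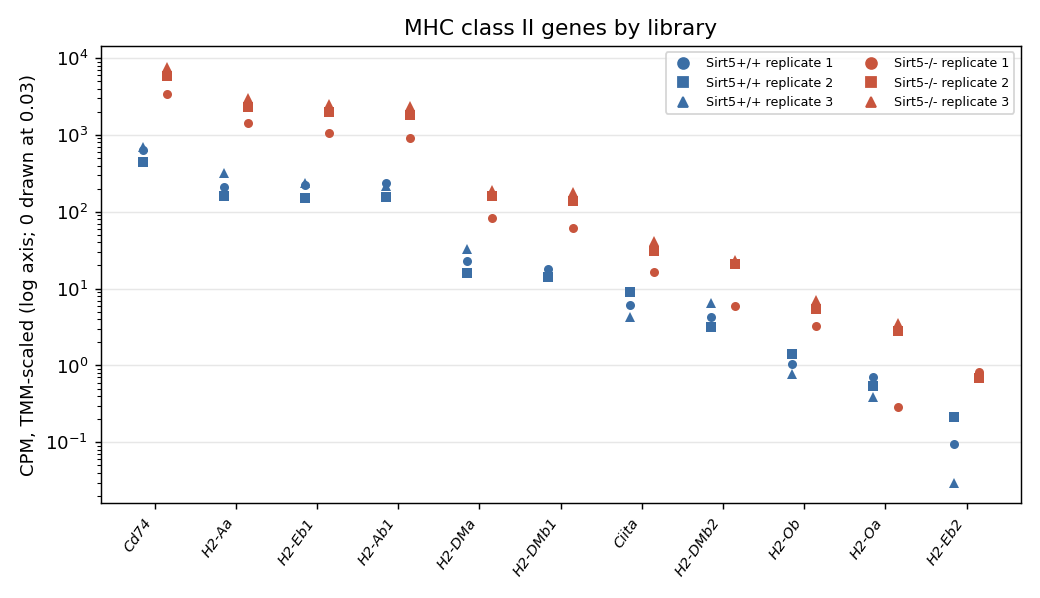
Level of each tested class II chain and of Cd74 and Ciita in each library (CPM on a log axis, blue Sirt5+/+, red Sirt5-/-, one symbol per replicate number). Cd74, H2-Aa, H2-Ab1 and H2-Eb1 separate by genotype, with Sirt5-/- replicate 1 lowest among the red points, while H2-DMb2 and H2-Oa overlap.

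The chains that edit the class II peptide were next. H2-DMa and H2-DMb1 form the H2-DM exchanger. H2-DMa was at 22.9, 16.2 and 32.5 CPM in Sirt5+/+ and 81.9, 159 and 194 CPM in Sirt5-/-, a log2 fold change of 2.61 ± 0.41 (adjusted p = 0.00313, edgeR). H2-DMb1 was at 17.8, 14.2 and 17.0 CPM against 62.0, 139 and 181 CPM, a change of 2.96 ± 0.41 (adjusted p = 0.00223). Neither gene overlapped between genotypes. The second beta chain copy H2-DMb2 was at 4.27, 3.14 and 6.55 CPM against 6.01, 20.7 and 23.6 CPM. One Sirt5-/- liver, replicate 1, lay among the Sirt5+/+ values there, and the log2 change of 1.89 ± 0.52 (adjusted p = 0.0228) lost its call without Sirt5+/+ replicate 1 or 2 or Sirt5-/- replicate 2 or 3 (adjusted p 0.0761 to 0.0949). H2-DMb1 shared 31.4% of its 31-base words with other genes, above all H2-DMb2, so counts could be split between these copies. H2-DMa overlaps Brd2 on the opposite strand by 3094 bases, and since the strand setting of the libraries is not given in the sources used here, reads of overlapping genes on opposite strands cannot be told apart.

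H2-Oa and H2-Ob form H2-O, an inhibitor of H2-DM known mainly from B cells. H2-Ob was at 1.04, 1.39 and 0.786 CPM in Sirt5+/+ and 3.27, 5.40 and 7.04 CPM in Sirt5-/-, a log2 change of 2.24 ± 0.42 (adjusted p = 0.00535, edgeR). H2-Oa was at 0.712, 0.536 and 0.393 CPM against 0.292, 2.78 and 3.59 CPM, and Sirt5-/- replicate 1 was the lowest of all 6 livers. Its change of 1.99 ± 0.80 missed the threshold (adjusted p = 0.0887), but passed it without that library (2.48, adjusted p = 0.0155) and in the authors' deposited table (1.70, adjusted p = 0.0413), where 18.8% of the genes with a p were higher and 17.8% lower. The minor chain H2-Eb2 rested on 2, 6 and 0 counts in Sirt5+/+ and 14, 25 and 25 in Sirt5-/-. Its log2 change of 2.45 ± 0.72 (adjusted p = 0.0311) lost its call without any 1 of Sirt5-/- replicates 1 to 3 or Sirt5+/+ replicate 1 (adjusted p 0.0896 to 0.107), and was 3.35 without Sirt5+/+ replicate 2. It also lost its call with no filter (adjusted p = 0.0614). The other class II genes by name, the pseudogenes H2-Ea-ps, H2-Pa and H2-Pb, had no count in any library. H2-Ea-ps is the I-E alpha chain gene, which C57BL/6 mice are known to carry in a defective form, so that they lack the I-E molecule at the cell surface. Over the 9 tested chains, 7 had no overlap between genotypes and all 7 were higher in Sirt5-/-, where 25.8% of all tested genes were so placed, and Sirt5-/- replicate 1 was the lowest of its genotype in 8 of 9.

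Ciita, the transactivator of these genes (chr16:10480059-10528418), was at 6.22, 8.96 and 4.32 CPM in Sirt5+/+ and 16.3, 30.7 and 42.0 CPM in Sirt5-/-. The order of the Sirt5-/- livers was again 1, 2, 3 from low to high, with no overlap between genotypes. Its log2 change was 2.17 ± 0.41 (4.50-fold, adjusted p = 0.00525, edgeR). Within a library, H2-Ab1 over Ciita had a log2 ratio of 5.21, 4.12 and 5.57 in Sirt5+/+ and 5.81, 5.87 and 5.82 in Sirt5-/-. Ciita overlaps Dexi on the opposite strand.

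Because most of these chains rose together, the sequence just before the start is shown for H2-Aa, H2-Eb1 and H2-Oa. Their RefSeq promoter windows hold the exact Y box, as does that of H2-Eb2, which is not shown. This 8-base element, bound by the factor NF-Y, is part of the promoter module on which Ciita is assembled. The stretches are on GRCm38.p6, 5′ to 3′ on the gene's own strand, and end at the base before the RefSeq start: H2-Aa at chr17:34287824-34287953 (minus), H2-Eb1 at chr17:34305737-34305866 (plus) and H2-Oa at chr17:34092249-34092378 (plus). Capitals mark the Y box.
H2-Aa: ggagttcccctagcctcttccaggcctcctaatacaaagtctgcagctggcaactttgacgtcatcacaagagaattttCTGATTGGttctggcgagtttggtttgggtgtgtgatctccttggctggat
H2-Eb1: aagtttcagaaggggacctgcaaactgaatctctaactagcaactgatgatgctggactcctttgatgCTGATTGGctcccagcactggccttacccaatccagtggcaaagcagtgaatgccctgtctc
H2-Oa: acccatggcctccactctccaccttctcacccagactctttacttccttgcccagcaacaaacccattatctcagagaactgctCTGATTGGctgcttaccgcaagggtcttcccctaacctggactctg
The Y box starts 51 bases before the start of H2-Aa, 62 before that of H2-Eb1 and 46 before that of H2-Oa. Searched as CTGATTGG on both strands, it was in 4 of the 9 windows of 8 class II genes (also H2-Eb2), and in 4.10% of 32851 RefSeq windows of 300 bases (250 before to 50 after the start). The shorter CCAAT, contained in its reverse complement, was in 8 of these 9 windows, 1 of the 2 of H2-DMa being without it, and in 37.4% of all windows. H2-DMa, H2-DMb1, H2-DMb2 and H2-Ob, with log2 changes of 1.89 to 2.96, had CCAAT without the exact Y box, and H2-Oa, which has it, did not pass the test. The match is a description of these letters only.

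Among class I genes, the classical heavy chains, which present peptides to CD8 T cells, did not pass the test. H2-K1 (chr17:33996017-34000347, minus strand) was at 1445, 938 and 1739.9 CPM in Sirt5+/+ and 1009, 782 and 714 CPM in Sirt5-/-. H2-D1 (chr17:35262730-35267499, plus strand) was at 661, 446 and 359 CPM against 497, 568 and 596 CPM. The genotypes overlapped for both, and the log2 changes were -0.72 ± 0.40 for H2-K1 (adjusted p = 0.195, edgeR) and 0.18 ± 0.35 for H2-D1 (adjusted p = 0.722). With library totals as the scale H2-K1 was at 0.00 and H2-D1 at 0.78, where the median of all genes is at 0.60. B2m, the light chain shared by all class I molecules, was at 2028, 1562 and 5303 CPM against 3092, 2006 and 1929 CPM. The high value is that of Sirt5+/+ replicate 3, one of the libraries rich in mitochondrial reads and the one with the lowest TMM factor. In the deposited TPM, which divides counts by transcript length, the same library was the lowest for B2m, at 2164.5 against 3054 to 4132 in the others. B2m had a log2 change of -0.34 ± 0.57 (adjusted p = 0.682) that turned to 0.44 without this library and to 0.57 with library totals.

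**Figure D3:**
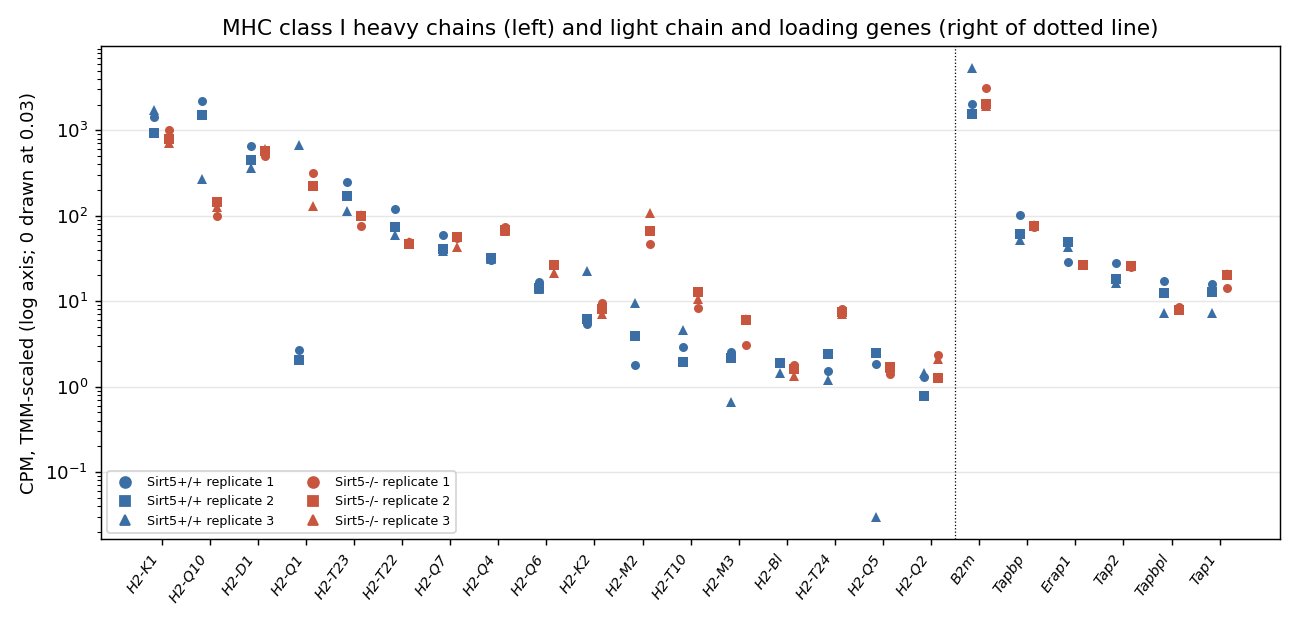
Level of each tested class I heavy chain (left of the dotted line) and of the light chain and loading genes (right) in each library (CPM on a log axis, blue Sirt5+/+, red Sirt5-/-, one symbol per replicate number). H2-Q10 is lower and H2-M2, H2-Q4 and H2-T24 are higher in all red points, and for H2-Q1 the blue triangle (Sirt5+/+ replicate 3, 674 CPM) stands above 2.70 and 2.04 CPM in the other blue points.

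The largest fall among the 39 genes was that of H2-Q10, a heavy chain of the Q region (chr17:35470089-35474563, plus strand) known as a secreted product of hepatocytes. It was at 2191, 1493 and 269 CPM in Sirt5+/+ and at 98.7, 143 and 128 CPM in Sirt5-/-. On this scale every Sirt5-/- liver lay below every Sirt5+/+ liver, and Sirt5+/+ replicate 3 was far below its group. In deposited TPM that library, at 54.7, lay among the Sirt5-/- livers at 45.2, 129 and 134. The other Sirt5+/+ livers were at 1709 and 1423 TPM. The log2 change was -3.42 ± 0.72 (10.7-fold lower, adjusted p = 0.00802, edgeR), and -2.80 without Sirt5+/+ replicate 1 (adjusted p = 0.0250). The hepatocyte genes given above were lower in the Sirt5-/- livers too. In Sirt5+/+ replicate 3, where H2-Q10 was low, they were mixed: Cyp2e1 was at 1498 CPM against 9896 and 5998 CPM in replicates 1 and 2, and Ass1 at 1008 against 4573 and 2895 CPM. Alb, in contrast, was at 49643 against 58203 and 49952 CPM and Hnf4a at 511 against 514 and 434 CPM, so the summed level, carried by Alb and Apoa1, does not show the low genes. The part of hepatocyte content in the fall of H2-Q10 was not tested. In bulk tissue, fewer cells of a type and less RNA per cell cannot be told apart, which holds for each value here.

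H2-Q1, another Q heavy chain (chr17:35320405-35325099, plus strand), divided the livers differently. H2-Q1 was at 2.70, 2.04 and 674 CPM in Sirt5+/+ and at 313, 221 and 130 CPM in Sirt5-/-. In CPM Sirt5+/+ replicate 3 was thus the highest of the 6 livers for H2-Q1, while the other 2 Sirt5+/+ livers had 57.3 and 56.7 counts. In deposited TPM it was not the highest, at 222 against 245, 327 and 221 in Sirt5-/- replicates 1 to 3. The fitted log2 change of -0.03 ± 1.66 (adjusted p = 0.991) became 6.61 without that library (adjusted p = 5.7e-05), so 1 library decides it. Within libraries, the log2 ratio of H2-Q10 to H2-Q1 was 9.60 and 9.48 in Sirt5+/+ replicates 1 and 2 and -1.32 in replicate 3, next to -1.66, -0.63 and -0.03 in Sirt5-/-. In these 2 genes Sirt5+/+ replicate 3 thus lay with the Sirt5-/- livers, although its Sirt5 level fitted its label. The reason was not tested, and the Sirt5+/+ means of H2-Q1 and H2-Q10 join unlike livers. H2-Q10 shared 30.3% of its 31-base words with other genes and H2-Q1 23.7%, so the split of reads between Q copies is uncertain. The sum of both was 2193, 1495 and 943 CPM against 412, 365 and 257 CPM, higher in each Sirt5+/+ liver on this scale. In deposited TPM the sum was 1710, 1424 and 276 against 290, 456 and 355, so there the genotypes overlapped. The gene sharing most words was H2-Q7 for H2-Q10 and H2-Q2 for H2-Q1, so this sum does not settle that split.

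Of the other Q genes, H2-Q4 and H2-Q6 rose. H2-Q4 was at 30.7, 32.3 and 31.1 CPM in Sirt5+/+ and 74.3, 68.6 and 67.0 CPM in Sirt5-/-, with little spread within a genotype. Its log2 change was 1.16 ± 0.22 (2.23-fold, adjusted p = 0.00521, edgeR), and with library totals 1.78 (adjusted p = 0.0601). H2-Q6, one of the genes for the nonclassical Qa-2 antigen, was at 16.8, 14.3 and 14.0 CPM against 27.2, 26.2 and 21.6 CPM. No values overlapped, and the log2 change was 0.73 ± 0.22 (adjusted p = 0.0309), a call lost without Sirt5+/+ replicate 2 or any of Sirt5-/- replicates 1 to 3 (adjusted p 0.0730 to 0.144), with library totals (1.33, adjusted p = 0.185) and with no filter (0.78, adjusted p = 0.0516). H2-Q7, the other Qa-2 gene, overlapped at 38.9 to 58.8 CPM against 42.5 to 56.9 CPM (log2 0.16, adjusted p = 0.683). H2-Q2 (0.73, adjusted p = 0.256) and the pseudogene H2-Q5 (0.04, adjusted p = 0.975) lay at or under 2.50 CPM in all livers. H2-Q6 shared 50.3%, H2-Q7 39.1%, H2-Q4 38.4% and H2-Q5 57.8% of their words with other genes.

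The promoter sequences of 4 class I genes that differ in their change are set side by side, since these genes are close copies. They end at the base before the RefSeq start on GRCm38.p6, all on the plus strand: H2-D1 at chr17:35262904-35263093, H2-Q4 at chr17:35379427-35379616, H2-Q6 at chr17:35424660-35424849 and H2-Q10 at chr17:35469899-35470088. The class I enhancer A (GGGGATTCCCC, bound by NF-kappaB factors) and the interferon response element (AGTTTCACTTC) were searched on both strands as they stand in the H2-K1 window, so H2-K1 holds them by construction. Capitals mark enhancer A and the Y box as its reverse complement (CCAATCAG).
H2-D1: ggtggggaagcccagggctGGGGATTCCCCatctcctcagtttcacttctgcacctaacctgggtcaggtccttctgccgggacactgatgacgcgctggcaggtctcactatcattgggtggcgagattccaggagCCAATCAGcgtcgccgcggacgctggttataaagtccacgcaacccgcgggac
H2-Q4: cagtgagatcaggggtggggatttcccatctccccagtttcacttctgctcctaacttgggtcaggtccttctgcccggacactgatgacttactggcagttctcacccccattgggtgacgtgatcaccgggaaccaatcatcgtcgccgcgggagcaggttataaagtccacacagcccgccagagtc
H2-Q6: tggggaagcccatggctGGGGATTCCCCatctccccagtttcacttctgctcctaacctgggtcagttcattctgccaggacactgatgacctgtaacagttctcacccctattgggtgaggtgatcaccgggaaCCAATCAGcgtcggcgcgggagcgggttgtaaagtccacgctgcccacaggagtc
H2-Q10: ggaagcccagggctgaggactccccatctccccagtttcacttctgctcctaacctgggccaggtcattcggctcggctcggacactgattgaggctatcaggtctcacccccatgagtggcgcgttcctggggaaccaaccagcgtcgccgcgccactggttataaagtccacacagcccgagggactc
H2-D1 and H2-Q6 hold both elements, and H2-Q4 and H2-Q10 hold neither in exact form. The interferon response element was in all 4, in lower case here. It was in 7 of 12 windows of the 11 class I heavy chain genes (among them both of H2-K1) against 0.0517% of all RefSeq windows. Enhancer A was in 4 of 12 (both of H2-K1, H2-D1 and H2-Q6) against 0.0304% of all, and the Y box in 6 of 12. The letters of enhancer A and of the response element were taken from H2-K1 and counted in related genes. Their shares beside all windows are therefore no test of enrichment. No class II window held enhancer A or the interferon response element. H2-Q10 was the 1 class I heavy chain with a window that lacked CCAAT in it. The 4 log2 changes beside these sequences were 0.18 for H2-D1, 1.16 for H2-Q4, 0.73 for H2-Q6 and -3.42 for H2-Q10.

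In the T region, H2-T24 and H2-T10 rose. H2-T24 (chr17:36005695-36020560) was at 1.52, 2.43 and 1.18 CPM in Sirt5+/+ and 8.11, 7.55 and 7.10 CPM in Sirt5-/-, with no overlap, a log2 change of 2.10 ± 0.35 (adjusted p = 0.00344, edgeR). H2-T10, annotated as a polymorphic pseudogene, was at 2.89, 1.96 and 4.59 CPM against 8.34, 12.9 and 10.6 CPM, a change of 1.80 ± 0.37 (adjusted p = 0.00716). Its close copy H2-T22, whose product is a ligand of gamma delta T cells, was placed the other way, at 120, 73.2 and 59.5 CPM against 49.6, 46.4 and 49.3 CPM. The groups for H2-T22 did not overlap either, but the change of -0.80 ± 0.30 missed the threshold (adjusted p = 0.0746), and passed it without Sirt5+/+ replicate 3 (adjusted p = 0.0129). H2-T10 and H2-T22 shared 50.7% and 51.0% of their words with other genes, so their split is uncertain. H2-T23, the Qa-1 heavy chain that natural killer receptors read, was at 245, 169 and 115 CPM against 75.1, 99.7 and 103 CPM (log2 -0.93 ± 0.34, adjusted p = 0.0637). It passed the threshold without Sirt5+/+ replicate 3 (adjusted p = 0.00800) and in the authors' deposited table (-0.90, adjusted p = 0.0283).

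H2-M2 of the M region (chr17:37480851-37483552, minus strand) had the largest rise of all 39 genes. It was at 1.80, 3.89 and 9.56 CPM in Sirt5+/+ and 46.5, 66.3 and 107 CPM in Sirt5-/- (5.09 ± 4.02 against 73.2 ± 30.8, SD, n = 3). The log2 change was 3.91 ± 0.62 (adjusted p = 0.00319, edgeR), and 4.72 without Sirt5+/+ replicate 3, the highest of its group. H2-M2 shared only 3.20% of its words with other genes, so its reads were largely its own. H2-M3, which presents formylated bacterial peptides, was at 2.51, 2.18 and 0.655 CPM against 3.03, 5.98 and 6.24 CPM. The genotypes did not overlap, but the change of 1.45 ± 0.50 missed the threshold (adjusted p = 0.0543), and the authors' deposited table has it past the threshold (1.37, adjusted p = 0.0174). The pseudogenes H2-K2 (-0.43, adjusted p = 0.563) and H2-Bl (-0.17, adjusted p = 0.763) overlapped, and with library totals they were at 0.57 and 0.38. Of the class I names with no test, 9 had no count at all and H2-T-ps, H2-M5, H2-M6-ps, H2-M10.6, H2-Q3 and H2-T3 had at most 33 counts in a library.

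Over the 17 tested heavy chains, 6 were higher and 3 lower without overlap between the genotypes, where the background is 25.8% and 24% of all genes, and 13 of the 17 shared over 20% of their words with other genes. The heavy chains summed to 4789.6, 3231 and 3342 CPM in Sirt5+/+ and 2281, 2118 and 1994 CPM in Sirt5-/-. In this sum H2-Q10 stood at 2191, 1493 and 269 CPM against 98.7, 143 and 128 CPM, while 5 of the 17 chains rose. The sums per transcript length, given below, overlapped between the genotypes, so the lower sum does not describe the heavy chains as a group. The class II chains summed to 713, 503 and 835 CPM against 3551, 6451 and 8289 CPM.

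Loading of class I showed no call. Tap1, one subunit of the peptide transporter, was at 15.8, 12.9 and 7.34 CPM in Sirt5+/+ and 14.3, 20.4 and 20.8 CPM in Sirt5-/-, with overlap (log2 0.62 ± 0.31, adjusted p = 0.165, edgeR). Its partner Tap2 was at 0.29 ± 0.25 (adjusted p = 0.409) and the loading chaperone Tapbp (tapasin) at 0.08 ± 0.30 (adjusted p = 0.853). Tapbpl, the editor related to tapasin, was at -0.62 ± 0.32 (adjusted p = 0.171) and passed without Sirt5+/+ replicate 3 (-0.82, adjusted p = 0.0145). Erap1, which trims peptides in the endoplasmic reticulum, was at 28.7, 49.7 and 43.4 CPM against 27.4, 26.2 and 26.8 CPM. Erap1 was the 1 loading gene without overlap, but its change of -0.60 ± 0.26 missed the threshold (adjusted p = 0.108) and was 0.03 with library totals. It passed without Sirt5+/+ replicate 1 (-0.77, adjusted p = 0.0239).

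The immunoproteasome subunits replace the constitutive catalytic ones after interferon signals and are the standard form in leukocytes. Psmb8 was at 26.0, 20.0 and 20.0 CPM in Sirt5+/+ and 51.0, 60.0 and 62.7 CPM in Sirt5-/- (log2 1.39 ± 0.24, adjusted p = 0.00377, edgeR). Psmb9 was at 14.3, 9.61 and 12.8 CPM against 24.3, 27.5 and 30.0 CPM (1.16 ± 0.24, adjusted p = 0.00745). Both were free of overlap. Psmb10 was at 43.9, 27.4 and 26.7 CPM against 40.3, 39.6 and 39.2 CPM, with overlap (0.28 ± 0.26, adjusted p = 0.445). Psmb9 and Tap1 lie head to head and share 212 bases on opposite strands.

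Ratios within a library do not depend on how libraries are scaled, and 5 were tested. The log2 ratio of Psmb8 to the constitutive Psmb5, which it replaces, was -1.71, -1.42 and -0.68 in Sirt5+/+ and 0.41, 1.09 and 1.50 in Sirt5-/-. Psmb9 to Psmb6 was -3.46, -3.38 and -3.45 against -1.98, -1.60 and -1.48, and Psmb10 to Psmb7 was -1.23, -1.80 and -1.09 against -0.08, -0.23 and -0.34. All 3 pairs were shifted toward the immunoproteasome in every Sirt5-/- liver, by 2.27, 1.74 and 1.15 on the log2 scale. The constitutive partners had log2 changes of -0.96 for Psmb5 (adjusted p = 0.0867, edgeR), -0.61 for Psmb6 (adjusted p = 0.118) and -0.88 for Psmb7 (adjusted p = 0.0429). The exact two-sided permutation p was 0.1 for each, the smallest that 3 against 3 allows, and 0.125 after Benjamini-Hochberg adjustment over the 5 ratios. H2-Ab1 to H2-K1 was -2.63, -2.58 and -2.99 in Sirt5+/+ and -0.13, 1.20 and 1.74 in Sirt5-/-, a difference of 3.67 with the same exact p of 0.1. H2-Ab1 to Ptprc (CD45, on all leukocytes) was 5.76, 3.35 and 3.66 against 4.09, 4.70 and 4.73. It overlapped (4.25 ± 1.31 against 4.51 ± 0.36, SD, n = 3; difference 0.25, exact permutation p = 0.8), and the difference was -0.20 without Sirt5+/+ replicate 2 and -0.04 without replicate 3. The overlap rested on Sirt5+/+ replicate 1, with 89 counts of Ptprc: without it the difference was 1.01 and the genotypes did not overlap.

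**Figure D4:**
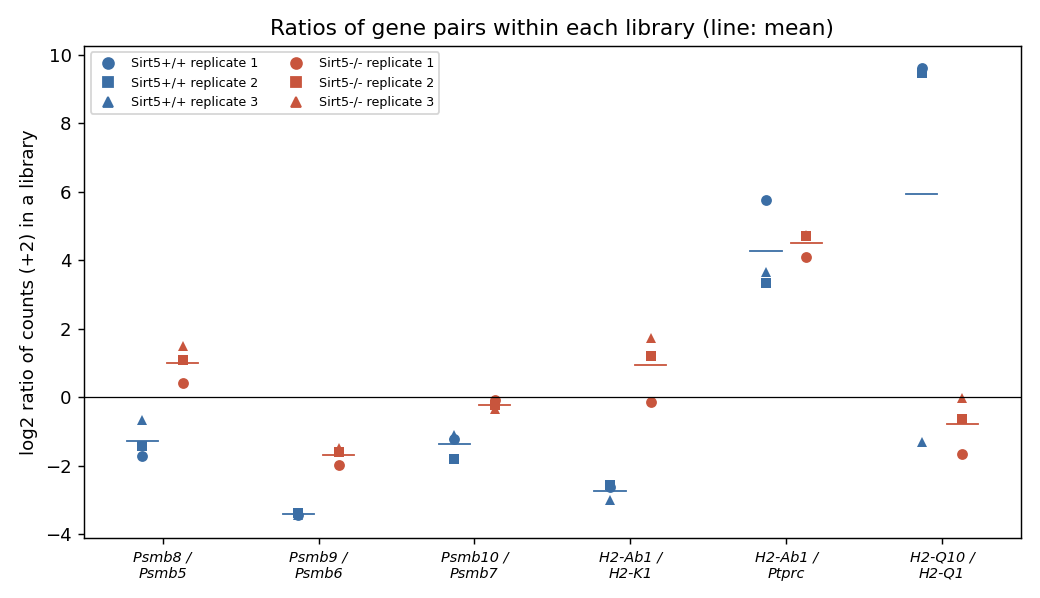
Log2 ratio of counts between 2 genes of the same library (y axis) for the 5 tested pairs and, without a test, H2-Q10 to H2-Q1, with one point per liver, the genotype in colour and a line at the mean. The Sirt5-/- points lie above all Sirt5+/+ points for the first 4 pairs and overlap for H2-Ab1 to Ptprc, and at the right the blue triangle (-1.32) lies among the red points.

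Nlrc5, the class I transactivator, was at 7.16, 10.1 and 16.4 CPM in Sirt5+/+ and 23.3, 15.2 and 13.5 CPM in Sirt5-/-. The groups overlapped, and the log2 change of 0.64 ± 0.35 missed the threshold (adjusted p = 0.196, edgeR), passing it without Sirt5+/+ replicate 3 (1.05, adjusted p = 0.0170). Cd1d1, which presents lipids to natural killer T cells (chr3:86995834-86999441, minus strand), was at 81.4, 85.0 and 24.6 CPM against 8.63, 10.5 and 8.39 CPM. Its fall of -2.80 ± 0.46 on the log2 scale (6.94-fold lower, adjusted p = 0.00344) had Sirt5+/+ replicate 3 as the lowest of its group, as for H2-Q10, and 24.8% of its words were shared with other genes.

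Levels of different genes can be compared only per length, in the deposited TPM, which divides counts by transcript length, within a library. Summed TPM of the class I heavy chains was 4469.6, 3821 and 1694 in Sirt5+/+ and 2669, 3627 and 3729 in Sirt5-/-. The class II chains summed to 766, 683 and 278 TPM against 2770.5, 8920.3 and 13218 TPM. The ratio of class II to class I was therefore 0.171, 0.179 and 0.164 in Sirt5+/+ and 1.04, 2.46 and 3.54 in Sirt5-/-, so that class I led in each Sirt5+/+ liver and class II in each Sirt5-/- liver. By TPM rank among all genes, Cd74 stood at places 197, 216 and 215 in Sirt5+/+ and 40, 19 and 12 in Sirt5-/-. H2-K1 was the highest heavy chain in each Sirt5-/- liver at 2038, 2429 and 2477 TPM, and B2m stood at 3054, 3724 and 4132 TPM there.

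Other genes of both pathways were read from lists chosen by function, and the background shares of 17.4% higher and 17.1% lower apply to their counts with all libraries. Among 10 further class I pathway genes none rose and 1 fell, the constitutive subunit Psmb7 (log2 -0.88, adjusted p = 0.0429, edgeR), and the list's median was -0.53. That call was lost with library totals and without any 1 library but Sirt5+/+ replicate 3, without which 4 of the 10 were lower. Among 8 genes of class II processing in endosomes 5 rose and none fell, with a median of 2.28. Those with the smallest p were Cd63 (2.62, adjusted p = 0.00221), the thiol reductase Ifi30 (2.59, adjusted p = 0.00244) and March1, a ligase that turns class II over (2.76, adjusted p = 0.00271). Of 12 regulators of MHC genes 4 rose and 1 fell, and the list's median was 0.14. Spi1 (2.79) and Irf8 (1.84) led, both factors of myeloid cells, and the NF-Y subunit Nfyb was at -0.77 (adjusted p = 0.0198). Of the other NF-Y subunits, named after their values were seen, Nfya rose (0.72, adjusted p = 0.0295) and Nfyc was at -0.31 (adjusted p = 0.363). Those 4 and 1 became 2 and 0 with library totals or without any 1 of the Sirt5-/- replicates. Rfx5, which binds the class II promoter module, was at 0.05 (adjusted p = 0.912). In the costimulation list 4 of 5 tested genes rose (median 2.51), among them Icosl (2.51, adjusted p = 0.00195) and Cd86 (2.86, adjusted p = 0.00280), and 2 rose without Sirt5-/- replicate 3. The share of all genes called higher was also smaller, at 13.2%, 10.1% and 9.53% without Sirt5-/- replicates 1, 2 and 3.

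Of the interferon gamma signal, 2 of 6 tested genes rose, the receptor chains Ifngr1 (2.34, adjusted p = 0.00167, edgeR) and Ifngr2 (0.99, adjusted p = 0.0483). Only 1 rose with library totals or without Sirt5-/- replicate 2 or 3 or Sirt5+/+ replicate 1 or 2. Ifng itself had no count in Sirt5+/+ and 1, 7 and 5 counts in Sirt5-/- replicates 1 to 3, too few to test. Of 16 interferon-induced genes 11 rose and none fell (median 1.60), with Isg15 at 1.71, Cxcl10 at 2.70 and Gbp2 at 1.87. Iigp1 (-0.59), Igtp (-0.40) and Bst2 (-0.34), named after their values were seen, were negative but not called. The list's sum overlapped between genotypes, at 302 to 579 CPM in Sirt5+/+ and 467 to 548 CPM in Sirt5-/-. Leaving out Sirt5-/- replicate 3 gave 6 higher genes, where 9.53% of all tested genes were higher. Leaving out Sirt5-/- replicate 1 or 2 or Sirt5+/+ replicate 2 gave 7, where the all-gene shares were 13.2%, 10.1% and 12.9%. With all libraries that share was 17.4%, so fewer calls were made over all genes too.

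Summed markers of the cells that carry class II were higher in the Sirt5-/- livers as well. All 5 pan-leukocyte genes rose, and their sum was 86.3 to 127 CPM in Sirt5+/+ and 526 to 851 CPM in Sirt5-/-. Dendritic cell genes summed to 19.3 to 43.1 CPM against 72.1 to 111 CPM, with 3 of 8 higher (Batf3 at log2 3.40, Itgax at 2.00 and Xcr1 at 2.25). Monocyte genes summed to 189 to 264 CPM against 726 to 1445 CPM, with 2 of 4 higher and a median log2 change of 1.88. Most of that sum was Lyz2 (mean 203 against 1008 CPM), and Ly6c2 (1.44) and Itgam (-0.34) were not called. In the Kupffer cell and macrophage list (110 to 224 against 302 to 537 CPM) 3 of 7 rose, and the resident markers Clec4f (-3.42) and Cd5l (-3.26) fell. The median log2 change of this list was -0.98, and Vsig4 (-1.69) and Timd4 (-0.98) were not called. Without Sirt5+/+ replicate 3, 4 of the 7 were lower. The rise of the sum came mainly from Csf1r (mean 61.2 against 236 CPM) and Cd68 (26.2 against 155 CPM). B cell genes summed to 4.65 to 5.78 CPM against 9.50 to 11.8 CPM with 1 of 5 higher, near the 17.4% background. That call was lost with library totals or without any 1 Sirt5-/- replicate. In Sirt5-/- replicates 1 to 3 the B cell sum was 11.8, 10.2 and 9.50 CPM, whereas the sums given before it rose from replicate 1 to 3. T and NK genes summed to 3.36 to 7.73 CPM against 25.3 to 28.7 CPM with 4 of 6 tested higher. Of the cells that carry class I, sinusoidal endothelium summed to 75.5 to 115 CPM against 35.2 to 50.7 CPM (3 of 5 lower, and 0 with library totals), and bile duct genes to 76.9 to 386 CPM against 739 to 817 CPM (2 of 5 higher), with Sirt5+/+ replicate 3 at the top of its group. No gene of these lists was at 0 in all livers. The part of cell makeup in the class II rise was not tested; whether the ratio of H2-Ab1 to Ptprc, given above, overlapped between genotypes depended on Sirt5+/+ replicate 1.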

How the data were processed

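Total RNA from 6 mouse livers was sequenced, and 1 table of the whole series was used. The authors deposited expected counts and TPM per gene and library, with a log2 fold change, p-value and adjusted p-value per gene of their own comparison. HISAT2 2.1.0, RSEM 1.3.1 and DESeq2 1.24.0 are named, per the submitters' processing notes; their options, the strand setting and the genome build are not given in the sources used here. Coordinates were taken by gene ID from GENCODE M21 (GRCm38), which held 55450 of the 55536 IDs and all 57 members. RefSeq promoter windows matched 26 of the 39 tested members.

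Expected counts were rounded and fitted over all genes with edgeR 4.0.16 in R 4.3.3 (filterByExpr with a minimum count of 10 and a total of 15, TMM, quasi-likelihood F test, genotype only, two-sided). P-values were adjusted by Benjamini-Hochberg over 14799 genes at a threshold of 0.05, and the SE is the log2 fold change over the square root of F. Ratios used log2 of the count plus 2 and an exact permutation test. The step was tested on simulated data with less spread between libraries and far fewer changed genes than here, so that test does not cover these conditions. Total counts of 19307808 to 24330797 limit genes with few counts, and 3 counts were taken as the floor. Shared sequence was counted as 31-base words of annotated transcripts found in other genes. Alternatives were other scalings, filters, DESeq2 1.42.0, limma-voom (limma 3.58.1), removal of mitochondrial genes, a threshold of 0.01, a replicate block, leaving out each library, and, chosen after seeing the data, leaving out Sirt5+/+ replicate 3 and Sirt5-/- replicate 1 together, which had the most mitochondrial reads. The members and the lists were chosen with earlier results of these data known. Each member was accounted for, full statistics were given for a named core set and for members past the threshold, and from each other list up to 3 genes with the smallest p were named.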

Additional observations from a re-analysis of the deposited data

How the results depend on the processing

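Of the 19 genes called, 16 kept their call and direction at the threshold of 0.05 under every alternative that used all libraries, and 15 also when any 1 library was left out; H2-DMb2, H2-Eb2, H2-Q4 and H2-Q6 did not, as given above. At a threshold of 0.01, 14 were higher and 2 lower, and H2-DMb2, H2-Eb2 and H2-Q6 were not called. The number of members higher was 14 to 20 (17 with all libraries) and lower 2 to 5 when 1 library was left out, with 5 lower without Sirt5+/+ replicate 3 and also without both libraries with most mitochondrial reads. The class I heavy chain median of 0.16 was 0.78 with library totals, 0.56 with limma-voom, 0.35 with upper-quartile factors, 0.56 without those 2 libraries, and 0.086 to 0.65 when 1 library was left out. The class II median of 2.61 was 3.53 with library totals and 3.23 without those 2 libraries. Directions turned only for genes without a call: with library totals B2m (0.57), Erap1 (0.034), H2-Bl (0.38), H2-K2 (0.57) and H2-Q1 (1.59); with limma-voom H2-K2 (0.049) and H2-Q1 (4.44); with upper-quartile factors H2-Bl (0.028) and H2-Q1 (0.10); with no filter H2-Q1 (0.015). Without Sirt5+/+ replicate 3 B2m (0.44), Tapbp (-0.048), H2-K2 (0.56), H2-Q1 (6.61) and H2-Q5 (-0.39) turned, as did Tapbp (-0.031) without Sirt5+/+ replicate 2 and H2-Q1 (0.25) without Sirt5-/- replicate 3. Without those 2 libraries B2m (0.18), Tapbp (-0.032), H2-K2 (0.44), H2-Q1 (6.27) and H2-Q5 (-0.32) turned. When 1 library was left out, the log2 changes spanned -0.66 to 0.44 for B2m, -0.048 to 0.44 for Tapbp, -0.75 to 0.56 for H2-K2, -0.62 to 6.61 for H2-Q1 and -0.39 to 0.59 for H2-Q5. The difference in the ratio of H2-Ab1 to Ptprc was -0.20 to 1.01 when 1 library was left out. The cause was not tested for any of these. Over all genes, 2575 higher and 2525 lower became 3991 and 3656 without Sirt5+/+ replicate 3, 3904 and 3535 without those 2 libraries, 1535 and 1142 without Sirt5-/- replicate 2, and 1441 and 1090 without Sirt5-/- replicate 3.

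With the replicate block, 15 members were higher and 2 lower, the class I median was 0.48, H2-Q1 was at 5.16, and H2-Q6 (adjusted p = 0.0797) and H2-Eb2 (adjusted p = 0.0888) lost their call; over all genes 1978 were higher and 1665 lower. Deviations of same-numbered livers from their group means had correlations of -0.19, 0.11 and -0.20. Those of unlike-numbered livers ran from -0.21 to 0.27. The numbers thus gave no sign of pairing, but these correlations cannot exclude it.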
